A study of Mus musculus with 3 samples.

Results

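Mitotic progenitors are the nephron progenitors caught while they held the transcripts of the last step of the cell cycle. In single-cell RNA sequencing of cells sorted from the fetal mouse kidney, they were chosen by the counts of 8 genes that cells switch on in G2 and mitosis: Cdc20, Ccnb1, Plk1, Ube2c, Cenpe, Cenpf, Aurka and Hmmr. A cell first had to hold at least 1000 detected genes, at most 10% mitochondrial UMIs (unique molecular identifiers, each of which counts 1 captured RNA molecule), at least 1 UMI of Six2 and none of Wnt4. Of 7898 cells of good quality, 6047 passed this gate. The 8 counts were summed and divided by the cell's total UMIs, and the top 10% within each library were taken as mitotic. This gave 603 mitotic progenitors, 218 in library 1, 217 in library 2 and 168 in library 3.

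The cells came from embryos of the Six2GFP+ strain at E14.5 (embryonic day), in which green fluorescent protein reports Six2. Each of 3 tubes pooled kidneys from more than 1 litter, and GFP-positive cells were sorted with propidium iodide against dead cells and size gates against debris and doublets. All tubes shared a 10x chip (Chromium kit, version 2), and all 3 samples form a single group of the same genotype and age, with no treatment. The libraries are named here by the suffix of their cell barcodes, since the sources used here do not tie a suffix to a tube. Mitotic progenitors were set against 603 S-rich progenitors, which are the non-members of the gate in the top 10% of their library for 8 genes of DNA replication (Mcm3, Mcm5, Mcm6, Gins2, Ung, Slbp, Cdc6 and Ccne2), and against 1187 zero-sum progenitors, the cells of the gate with no UMI of the 8 mitotic genes. The remaining 4257 cells of the gate had some UMIs of the 8 genes and were not members.

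Library 2 stood apart from the other libraries. Ribosomal protein genes took 23.6%, 12.7% and 19.8% of the UMIs of mitotic progenitors in libraries 1, 2 and 3, against 27.2%, 15.2% and 23.3% in zero-sum progenitors. The library was therefore a term of every model. The p-values measure only how a difference within a tube varied over these 3 tubes, which may be technical. The spread behind them is estimated in part from all genes together. Mitotic progenitors held more RNA molecules per cell, with medians of 23222.5, 18377 and 22776.5 UMIs, against 19718, 14551 and 19378 in S-rich and 13981.5, 10661.5 and 13798 in zero-sum progenitors. They also had more detected genes, with medians of 4893.5, 4786 and 5012, against 3833.5, 3653.5 and 3944 in zero-sum progenitors. A cell with fewer UMIs meets the zero-sum rule more easily, so the gap to zero-sum progenitors is in part built into the choice. How far was not tested. Levels are therefore given as CPM, counts per 1000000 UMIs summed over all cells of a class in a library. Comparisons were repeated with cells thinned to 5000 UMIs and with deep cells only, those at or above their library's median of UMIs. With thinning the classes were chosen anew, which gave 598 mitotic progenitors, 509 of them members over all UMIs, and 2443 zero-sum progenitors. Among deep cells were 514 of the mitotic and 263 of the zero-sum progenitors. Across the libraries, 44 cells shared a barcode with a cell of another library, and 6 of these were mitotic progenitors.

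Nephron progenitors form the cap mesenchyme around the tips of the ureteric bud, where they renew themselves by dividing and give rise to all cells of the nephron other than the collecting duct. Six2 holds them in this state, and Wnt4 marks those that have begun to turn into epithelium. Entry into mitosis is driven by cyclin B with its kinase Cdk1. Exit is driven by the anaphase-promoting complex, a ubiquitin ligase that destroys cyclin B and securin. Many genes of G2 and mitosis share promoter elements that repress them in G1 and allow them to be transcribed late in the cycle: the CHR (cell cycle genes homology region), bound by the DREAM and MuvB complexes, and CCAAT boxes, bound by NF-Y.

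The rule genes cover both sides of this switch. Ccnb1 encodes cyclin B1, Plk1 and Aurka encode mitotic kinases, Cdc20 encodes an activator of the anaphase-promoting complex, and Ube2c encodes an ubiquitin-conjugating enzyme that works with that complex. Cenpe encodes a kinesin of the kinetochore, Cenpf a kinetochore and nuclear matrix protein, and Hmmr a protein of the mitotic spindle. In the reference annotation (GRCm38), Cdc20 (ENSMUSG00000006398) lies on chr4:118432901-118437352 on the minus strand. Ccnb1 (ENSMUSG00000041431) lies on chr13:100778650-100786570 on the minus strand. Plk1 (ENSMUSG00000030867) lies on chr7:122159439-122169873 and Ube2c (ENSMUSG00000001403) on chr2:164769898-164778822, both on the plus strand.

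The promoters of these 4 genes are shown because the members were chosen for transcripts that rise together. They run 250 bases before to 50 bases after the RefSeq transcription start (GRCm38.p6), 5′ to 3′ on the gene's own strand. The windows are chr4:118437294-118437593 (minus strand) for Cdc20, chr13:100786437-100786736 (minus) for Ccnb1, chr7:122159185-122159484 (plus) for Plk1 and chr2:164769679-164769978 (plus) for Ube2c. Capitals mark the CHR (TTTGAA or TTCGAA, on either strand, so that TTCAAA is a match on the reverse strand) and the CCAAT box (CCAAT, or ATTGG on the reverse strand).
Cdc20: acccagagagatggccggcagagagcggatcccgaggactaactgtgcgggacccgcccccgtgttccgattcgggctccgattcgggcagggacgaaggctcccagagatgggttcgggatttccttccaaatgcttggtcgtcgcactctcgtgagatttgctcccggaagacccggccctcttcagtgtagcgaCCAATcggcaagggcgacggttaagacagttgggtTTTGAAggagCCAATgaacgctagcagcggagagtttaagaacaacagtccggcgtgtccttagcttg
Ccnb1: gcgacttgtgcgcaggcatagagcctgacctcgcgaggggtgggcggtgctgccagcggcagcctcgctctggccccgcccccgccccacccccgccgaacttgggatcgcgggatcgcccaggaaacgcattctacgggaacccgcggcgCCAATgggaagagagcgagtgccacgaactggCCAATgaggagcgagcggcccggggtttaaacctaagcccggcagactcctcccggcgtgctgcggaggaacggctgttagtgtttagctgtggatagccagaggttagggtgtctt
Plk1: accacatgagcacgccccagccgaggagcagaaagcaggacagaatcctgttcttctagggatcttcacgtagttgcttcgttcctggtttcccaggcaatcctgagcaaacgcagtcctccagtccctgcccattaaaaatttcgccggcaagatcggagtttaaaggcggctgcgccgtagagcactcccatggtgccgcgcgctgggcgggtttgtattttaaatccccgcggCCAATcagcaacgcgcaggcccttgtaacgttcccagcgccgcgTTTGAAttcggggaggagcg
Ube2c: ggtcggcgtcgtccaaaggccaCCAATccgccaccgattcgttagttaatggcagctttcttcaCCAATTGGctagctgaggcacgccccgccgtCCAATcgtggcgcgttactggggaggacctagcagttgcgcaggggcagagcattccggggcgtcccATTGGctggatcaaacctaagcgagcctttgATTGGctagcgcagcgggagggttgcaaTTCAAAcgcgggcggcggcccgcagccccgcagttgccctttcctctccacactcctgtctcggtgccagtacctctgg
Positions are those of a match's first base, with the start as 1 and the base before it as -1. The Cdc20 window held TTTGAA at -18, between CCAAT boxes at -53 and -8. The Plk1 window held TTTGAA at 31 and a CCAAT box at -14. The Ube2c window held a CHR on the reverse strand at -29 and 6 CCAAT matches, of which CCAAT and ATTGG overlap in the run CCAATTGG. The Ccnb1 window held CCAAT boxes at -99 and -67 and no CHR by these letters. A run of TTTAAA, searched for on both strands after this was seen, lay at -42 in Ccnb1 and was found in 62.5% of the rule genes' promoters, 14.2% of those of the G2 and M lists and 13.2% of all promoters.

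A CHR was found in 6 of 8 rule gene promoters (75%), and Ccnb1 and Cenpe were without one. Over the lists of G2 and M genes described below, RefSeq promoters matched 104 of 126 symbols, and 64 of 120 promoters (53.3%) held a CHR. Among genes of DNA replication, with 34 of 45 symbols matched, 7 of 41 promoters (17.1%) held one, and 19.2% of all 32851 promoters did. A CCAAT box was found in all 8 rule gene promoters, in 65.8% of promoters of the G2 and M lists, in 53.7% of those of the replication list and in 37.4% of all promoters. Both elements together were found in 75%, 41.7%, 14.6% and 7.52% of these sets. Among the G2 and M lists, 12 of 13 promoters (92.3%) of cytokinesis genes held a CHR, against 5 of 24 (20.8%) of the genes of the anaphase-promoting complex and cohesin. A match is a run of letters and was not tested as a binding site.

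The rule's threshold was highest in library 2, and the scores just above and just below it were close in each library. The lowest member held 16.37, 20.43 and 15.14 UMIs of the 8 genes per 10000 UMIs in libraries 1, 2 and 3, against 16.36, 20.19 and 15.13 in the highest non-member. Within 10% of the threshold lay 35, 26 and 14 members, against 35, 24 and 26 non-members. Median members held 25.4, 32.7 and 27.9 UMIs of the 8 genes per 10000 UMIs, against 1.62, 1.88 and 1.45 over the whole gate, and zero-sum cells made up 18.9%, 20.6% and 19.4% of the gate. The score ran across the threshold without a gap.

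**Figure D1:**
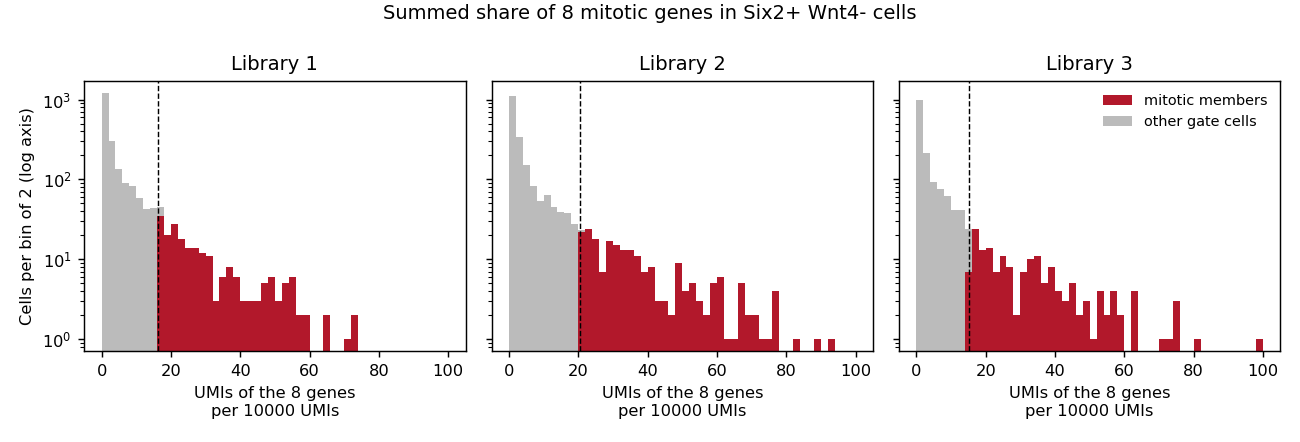
Cells of the gate by their summed UMIs of the 8 rule genes per 10000 UMIs (x axis; y axis: cells per bin, log scale), 1 panel per library, with the threshold of the top 10% dashed. The distribution falls off steadily and has no gap at the threshold, which lies at 16.37, 20.43 and 15.14 in libraries 1, 2 and 3.

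Most members held the whole set of 8 transcripts. All 8 were detected in 467 of 603 members (77.4%) and 7 in a further 95, with a median of 55, 58 and 62.5 UMIs of the 8 genes per member. Ube2c was found in 99.5% of members and gave 30.3% of their UMIs of the 8 genes. Ccnb1 was found in 98.5% and gave 15.6%, and Cdc20 was found in 97.7% and gave 14.4%. Aurka, found in 88.9%, and Hmmr, found in 91.7%, gave 5.32% and 4.62%, so the rule leans on a few genes with many captured molecules. Only 3 members held fewer than 5 of the 8 genes. One of them, in library 2, owed its place to 24 UMIs of Cenpe alone in a total of 9234, and held none of 10 further mitotic markers.

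These values chose the members and are given without a test. Ube2c stood at 929, 1128.5 and 1028 CPM in mitotic progenitors, against 96.5, 109 and 95.7 CPM in gate cells between members and zero-sum cells. Ccnb1 stood at 463, 651 and 481 CPM, against 56.2, 72.3 and 44.9 CPM in those cells, and Cdc20 at 445, 562 and 462 CPM, against 58.2, 81.0 and 56.7 CPM. Library 2 was the highest of the 3 for Ccnb1, Cdc20 and Ube2c in both classes. Plk1 averaged 212 ± 44.8 CPM in mitotic progenitors and 23.2 ± 4.71 CPM in the cells between (SD, n = 3 libraries), and Aurka 182 ± 42.1 and 24.1 ± 6.41 CPM. Cenpf varied less over libraries, at 424 ± 9.27 CPM in mitotic progenitors and 54.1 ± 4.60 CPM in the cells between. Hmmr averaged 156 ± 12.9 and 18.6 ± 2.89 CPM, and Cenpe 373 ± 38.7 and 79.9 ± 7.57 CPM.

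**Figure D2:**
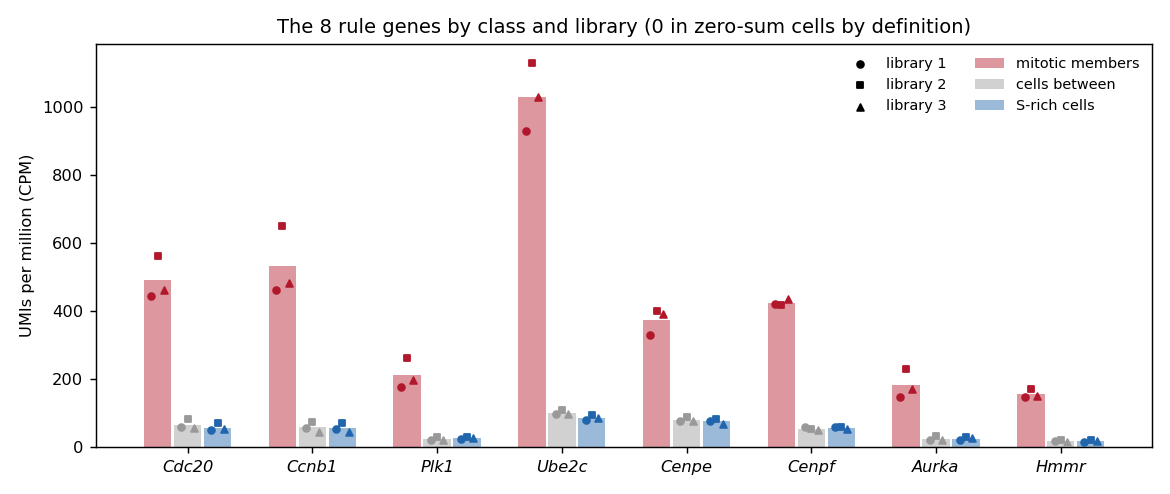
Level of each rule gene (CPM) in each class, with 1 point per library. In mitotic progenitors Ube2c lies at 929 to 1128.5 CPM and Hmmr at 147 to 171 CPM, while the zero-sum class is at 0 by definition.

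Genes the rule did not use carried the same mark. For 10 further mitotic markers (Cdk1, Top2a, Mki67, Birc5, Tpx2, Nusap1, Ccnb2, Cdca8, Aurkb and Bub1), the median member held 29.6, 38.1 and 32.0 UMIs per 10000 UMIs in libraries 1, 2 and 3. The medians were 6.42, 7.51 and 6.68 in S-rich progenitors and 0.72, 0.86 and 0.70 in zero-sum progenitors. Of the top 10% of gate cells by these 10 markers alone, 69.3%, 78.3% and 76.8% were mitotic progenitors by the rule. These markers cycle with the rule genes, so they describe the members and are no separate test of the label. They do not set mitosis apart from G2, and the single-gene cell above held none of them. Six2, which the gate required, stood at 146, 199 and 149 CPM in mitotic, 119.9, 179.5 and 140.3 CPM in S-rich and 151, 221 and 174 CPM in zero-sum progenitors.

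Markers of other cell types were scarce. Immune markers summed to 2.43, 1.53 and 53.5 CPM in mitotic progenitors, against 3.04, 2.55 and 2.42 CPM in zero-sum progenitors. The high value of library 3 came from 1 member, which held 197 of the 207 immune UMIs of that library's members and is left out in an alternative. Of 10 stromal markers all were detected, at summed levels of 92.7 to 125 CPM in mitotic and 111 to 149 CPM in zero-sum progenitors, of which the homeobox gene Meis1 gave most. Of 8 endothelial markers, Cdh5, Kdr and Tek were at 0 in the members, and the list summed to 16.4 to 18.1 CPM, against 26.1 to 31.0 CPM in zero-sum progenitors. Ret and Calb1 were at 0 among 8 ureteric markers. Cells with doublet scores in the top 6% made up 1.82% of mitotic and 4.30% of zero-sum progenitors, against 7.35% of the cells between. The part of these cells in the results was not tested, other than for immune cells and doublet scores, where the values without them are given in the closing section.

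The first comparison asked which transcripts change as a progenitor passes through G2 and mitosis, with zero-sum progenitors as the baseline. Of 10875 genes tested with edgeR's quasi-likelihood test and Benjamini-Hochberg adjustment, 4714 (43.3%) differed, 2339 (21.5%) of them higher and 2375 (21.8%) lower in mitotic progenitors. The median log2 fold change over all genes tested was -0.02. The classes were cut along the cell cycle, so genes that cycle with the 8 rule genes were bound to move with them, and their counts are a description of the members. DESeq2 called 2023 genes and moved the split, with 60.4% of calls higher against 49.6% by edgeR. Scaling by library totals only moved it the other way, with 39.7% of 4805 calls higher and a median over all genes of -0.08. Without the library as a term 2021 genes passed.

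The G2 and M genes rose almost as a whole. Outside the rule genes, 121 of 126 tested members of 7 lists were higher in mitotic progenitors and none was lower, with a median log2 fold change of 3.39. This covered 19 of 19 cyclins, kinases and their regulators (median 3.87), 24 of 24 kinetochore and checkpoint genes (3.57), 4 of 4 genes of the chromosomal passenger complex (4.94), 27 of 27 kinesins and spindle genes (5.11), 10 of 10 cytokinesis genes (5.38) and 18 of 18 condensin and chromatin genes (2.26). Of 24 genes of the anaphase-promoting complex and cohesin, 19 rose, by a median of only 0.39 on the log2 scale.

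Among cyclins and kinases, Cdk1, the kinase that cyclin B activates, stood at 337, 532 and 399 CPM in mitotic progenitors, against 18.1, 21.6 and 19.4 CPM in zero-sum progenitors (log2 fold change 4.46 ± 0.06 (SE), adjusted p = 3.16e-48). Ccna2, which encodes cyclin A2, stood at 283, 402 and 319 CPM, against 8.58, 7.22 and 4.62 CPM in zero-sum progenitors (log2 fold change 5.63 ± 0.09 (SE), adjusted p = 9.33e-47). The classes did not overlap for either gene, and library 2 was the highest among the mitotic libraries. At the kinetochore, Cenpa, which encodes the histone H3 variant of centromeres, stood at 455, 567 and 487 CPM, against 17.9, 21.2 and 17.6 CPM (log2 fold change 4.78 ± 0.06 (SE), adjusted p = 7.73e-51). The checkpoint kinase gene Bub1b rose by 4.61 ± 0.11 on the log2 scale.

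All 4 passenger complex genes, which correct attachments of the spindle and guide cytokinesis, rose. Aurkb, the kinase of the complex, stood at 161, 268 and 190.5 CPM in mitotic progenitors, against 2.86, 4.24 and 3.08 CPM in zero-sum progenitors (log2 fold change 5.96 ± 0.10 (SE), adjusted p = 6.75e-45). Birc5, which encodes survivin, stood at 487, 593 and 554 CPM, against 20.2, 21.9 and 17.6 CPM (log2 fold change 4.82 ± 0.06 (SE), adjusted p = 7.73e-51). The classes were apart in every library, with Cdca8 (borealin) at a log2 fold change of 5.06 ± 0.07 and Incenp at 4.68 ± 0.09.

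Spindle and cytokinesis genes were among the largest rises. Nusap1, which encodes a protein that stabilises spindle microtubules, stood at 262, 341 and 274 CPM in mitotic progenitors, against 1.79, 2.97 and 1.10 CPM in zero-sum progenitors (log2 fold change 7.25 ± 0.11 (SE), adjusted p = 5.21e-48). Kif11, the kinesin that pushes spindle poles apart, stood at 91.1, 131 and 83 CPM, against 0.894, 0.424 and 0.881 CPM (log2 fold change 7.09 ± 0.17 (SE), adjusted p = 3.08e-38). In both genes the zero-sum libraries were near the level of a few UMIs, so the size of the fold rests on small counts there. Other large rises were those of the helicase gene Pif1 (log2 fold change 7.10), Gas2l3 (6.94), the DNA glycosylase gene Neil3 (6.87), the kinetochore scaffold gene Casc5 (6.80), the cytokinesis kinesin gene Kif23 (6.47), Kif2c (6.44), Fam64a (6.30) and Sapcd2 (6.24). Tpx2, which activates Aurora A on the spindle, rose by 6.07 ± 0.09. Prc1, which bundles the microtubules of the central spindle, rose by 6.20 ± 0.11, and Racgap1, part of the complex that starts furrowing, by 5.55 ± 0.09.

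All 18 genes of the condensin and chromatin list rose. Hmgb2, a chromatin protein, stood at 2963, 3429 and 2950.4 CPM in mitotic progenitors, against 302, 339 and 295 CPM in zero-sum progenitors (log2 fold change 3.37 ± 0.03 (SE), adjusted p = 9.46e-58). Top2a, the topoisomerase that untangles sister chromatids, stood at 659, 869 and 782 CPM, against 14.48, 12.1 and 12.5 CPM (log2 fold change 5.91 ± 0.06 (SE), adjusted p = 1.98e-53). Mki67, a gene of the cytokinesis list that encodes the proliferation marker Ki-67, which coats mitotic chromosomes, stood at 206, 275 and 232 CPM, against 7.51, 3.82 and 8.37 CPM (log2 fold change 5.20 ± 0.10 (SE), adjusted p = 1.75e-42). All 3 were higher in each mitotic library than in any zero-sum library. The condensin gene Smc4 rose by 3.05 ± 0.05 and the histone variant gene H2afx by 3.26 ± 0.05.

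In the list of the anaphase-promoting complex and cohesin, Fbxo5, which encodes the inhibitor Emi1 of the complex, rose by 3.53 ± 0.08 on the log2 scale, and Ube2s, which encodes the enzyme that lengthens its ubiquitin chains, by 1.94 ± 0.03. Fzr1, the activator Cdh1 that takes over from Cdc20 late in mitosis, rose by 1.79 ± 0.07, and the cohesin gene Rad21 by 1.35 ± 0.05. Espl1, the separase that cuts cohesin at anaphase, had the largest log2 fold change of the list, 5.22 ± 0.32, with 15.8, 20.1 and 18.1 CPM, against 0.894, 0.212 and 0.220 CPM in zero-sum progenitors. These zero-sum levels are a few UMIs or fewer, so the size of the fold and its rank rest on small counts. Among genes named as subunits of the complex (Anapc1 to Anapc15), the largest log2 fold change was that of Anapc15, at 0.93 ± 0.09. Espl1 and Anapc15 were picked after their values were seen.

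**Figure D3:**
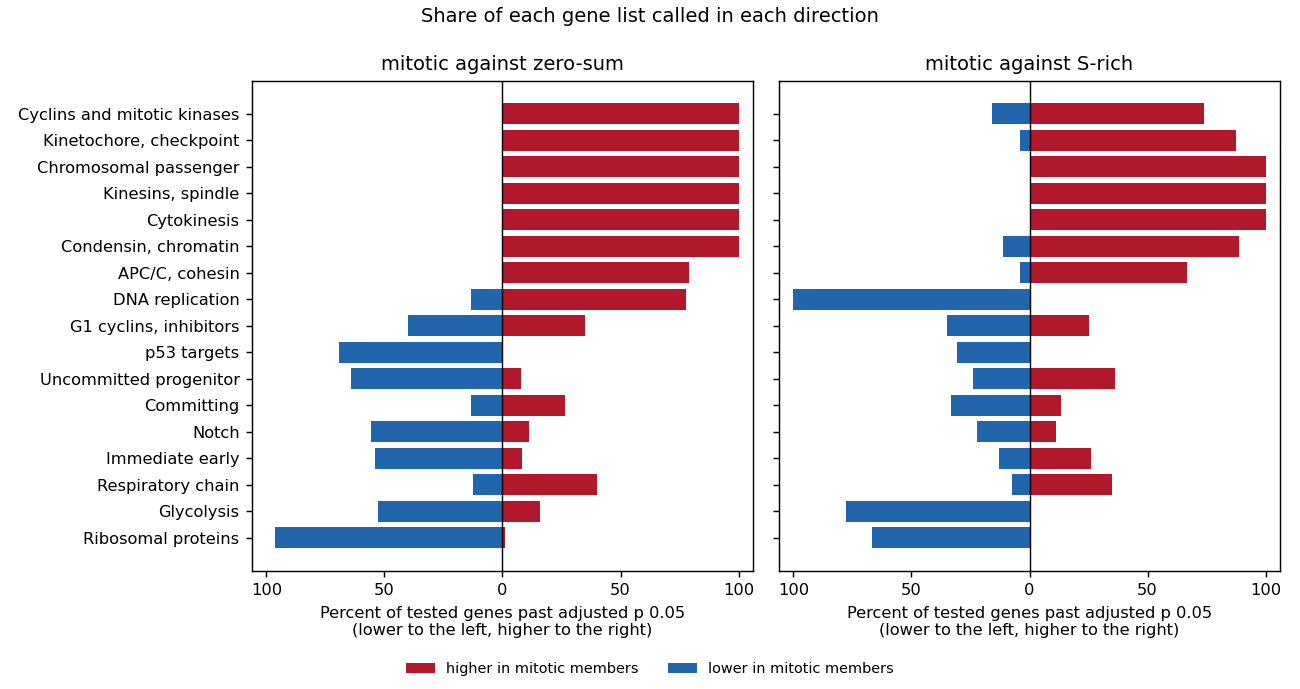
Share of the tested genes of each list that were called higher (right) or lower (left) in mitotic progenitors, against zero-sum and against S-rich progenitors. The G2 and M lists reach 100% higher against zero-sum progenitors other than the list of the anaphase-promoting complex and cohesin, and the replication list is mostly higher against zero-sum progenitors and wholly lower against S-rich progenitors.

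Genes of DNA replication moved in both directions. Of 45 tested, 35 were higher and 6 lower in mitotic than in zero-sum progenitors, with a median log2 fold change of 0.76. The 8 replication genes that chose S-rich progenitors are not in this list, and 5 of them were lower and 1 higher (median -0.49). Rrm2, a subunit of the ribonucleotide reductase that makes deoxynucleotides, stood at 239, 404 and 298 CPM, against 58.3, 58.4 and 52.2 CPM in zero-sum progenitors (log2 fold change 2.50 ± 0.07 (SE), adjusted p = 1.13e-35). The gene 2810417H13Rik, now named Pclaf, which encodes a PCNA-binding protein, stood at 953, 1223 and 1056 CPM, against 71.5, 66 and 63.8 CPM (log2 fold change 4.04 ± 0.05 (SE), adjusted p = 1.36e-51). Tk1 and Tyms, enzymes of thymidine nucleotide synthesis, rose by 2.54 ± 0.09 and 1.69 ± 0.05.

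The 6 genes of the list that fell included subunits of the replicative helicase. Mcm4, a subunit of the replicative helicase, stood at 55.9, 81.4 and 76.5 CPM in mitotic progenitors, against 127, 170.4 and 135 CPM in zero-sum progenitors (log2 fold change -0.97 ± 0.06 (SE), adjusted p = 5.47e-19). Cdt1, which loads that helicase and is destroyed in S phase, stood at 29.6, 36.6 and 30.8 CPM, against 66, 78.7 and 62.5 CPM (log2 fold change -1.05 ± 0.08 (SE), adjusted p = 1.16e-15). Mcm2 fell by 0.81 ± 0.05 and Cdca7 by 0.91 ± 0.05 on the log2 scale, and neither class overlapped the other. The largest fall of all was that of Ung, which encodes the uracil glycosylase of base repair, with 16, 19.6 and 16.8 CPM, against 137, 181 and 143 CPM (log2 fold change -3.08 ± 0.08 (SE), adjusted p = 2.02e-36). Alkbh2, another DNA repair gene, fell by 2.50 ± 0.18. Of the zero-sum progenitors 22 were also S-rich, and without those cells 4719 genes passed.

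Other large falls came from outside the cell cycle. They were Actn3 (log2 fold change -2.14), an actinin gene, Mmp23 (-2.01), a metalloprotease gene, Npdc1 (-1.56), Mxra8 (-1.52), Ctsf (-1.50), which encodes cathepsin F, Fbxl20 (-1.49), Pik3ip1 (-1.48), an inhibitor of PI3 kinase, and Pygm (-1.48), a glycogen phosphorylase gene. All were lower in each mitotic library than in any zero-sum library.

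Replication histones, whose transcripts mostly lack poly(A) tails and are therefore captured in part only, were detected unevenly. Of 28 listed, 13 passed the filter on low counts, and 12 of these were higher and 1 lower in mitotic progenitors. Hist1h2ap stood at 323, 17.8 and 35.7 CPM, against 13.4, 0.849 and 2.20 CPM in zero-sum progenitors (log2 fold change 4.56 ± 0.11 (SE), adjusted p = 2.30e-38). Library 1 was far above the others in both classes, so that the lowest mitotic library, at 17.8 CPM, lay close above the highest zero-sum library, at 13.4 CPM. Hist1h1b, a linker histone gene, rose by 5.31 ± 0.20, Hist1h1e by 3.57 ± 0.19 and Hist1h4i by 2.45 ± 0.09. Hist1h2bc, one of the histone genes with polyadenylated transcripts, stood at 41.3, 30.3 and 39.8 CPM, against 69.7, 51.4 and 59.9 CPM (log2 fold change -0.65 ± 0.08 (SE), adjusted p = 3.56e-09). The calls of Hist1h2ap and Hist1h2bc did not pass without the library as a term. With the top 20% as members the log2 fold change of Hist1h2bc was -0.07 (adjusted p = 0.405).

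The D cyclins, which carry growth signals into G1, were lower in mitotic progenitors. Ccnd2 (cyclin D2) stood at 172, 167 and 154 CPM, against 406, 508 and 427 CPM in zero-sum progenitors (log2 fold change -1.38 ± 0.05 (SE), adjusted p = 2.03e-31). Ccnd1 (cyclin D1) stood at 64.8, 82.4 and 54.3 CPM, against 129, 159 and 119 CPM (log2 fold change -0.96 ± 0.06 (SE), adjusted p = 2.18e-19). Neither gene's classes overlapped. Ccnd3 (cyclin D3), picked after its values were seen, was at -0.39 ± 0.05, with libraries that overlapped between the classes. Over the whole list of G1 genes and inhibitors, 7 of 20 rose and 8 fell, with a median log2 fold change of -0.17.

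The inhibitors and antiproliferative genes of that list moved in both directions. Ccng2, which encodes the unconventional cyclin G2, stood at 99.4, 152 and 124 CPM in mitotic progenitors, against 40.2, 57.7 and 56.4 CPM in zero-sum progenitors (log2 fold change 1.34 ± 0.07 (SE), adjusted p = 6.63e-24). Cdkn2d, which encodes the inhibitor p19 of the cyclin D kinases, stood at 53, 77.4 and 53.8 CPM, against 17.2, 23.3 and 21.6 CPM (log2 fold change 1.62 ± 0.10 (SE), adjusted p = 2.49e-20). Both were higher in every mitotic library than in any zero-sum library, and the pocket protein gene Rbl1 rose by 1.25 ± 0.15. Cdkn1c, the imprinted gene of the inhibitor p57, stood at 1425, 1938 and 1517 CPM, against 1846, 2513 and 2099 CPM (log2 fold change -0.35 ± 0.03 (SE), adjusted p = 4.81e-17), and Btg2 at 134, 284 and 202 CPM, against 237, 617 and 326 CPM (log2 fold change -0.85 ± 0.05 (SE), adjusted p = 3.16e-21). Their libraries overlapped between the classes. Neither passed without the library as a term, and among cells at or above their library's median of UMIs Cdkn1c was at 0.074 on the log2 scale.

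Targets of p53, which cells raise under damage or stress, were lower as a group: 9 of 13 tested fell and none rose, with a median of -0.55. Trp53inp1 stood at 2.23, 4.33 and 3.88 CPM, against 12.7, 19.3 and 14.1 CPM in zero-sum progenitors (log2 fold change -2.10 ± 0.21 (SE), adjusted p = 5.52e-12). Bbc3, which encodes the death factor Puma, stood at 21.9, 26.7 and 18.3 CPM, against 44.9, 62.2 and 46.9 CPM (log2 fold change -1.14 ± 0.10 (SE), adjusted p = 4.03e-14), with no overlap of the classes. Among cells at or above their library's median of UMIs, 5 of 13 fell. Against S-rich progenitors 4 of 13 were lower and none higher, with a median of -0.08, and 19.2% of all genes tested were lower there. The mean levels of the tested targets summed to 793 CPM in mitotic and 829 CPM in S-rich progenitors.

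Genes of the uncommitted progenitor state were on balance slightly lower in mitotic progenitors. Of 25 tested, 16 fell and 2 rose, with a median log2 fold change of -0.26. Crym, a thyroid hormone-binding protein and progenitor marker, stood at 180.2, 290.1 and 241 CPM, against 323, 448 and 376 CPM in zero-sum progenitors (log2 fold change -0.65 ± 0.04 (SE), adjusted p = 6.32e-19), and every mitotic library was below every zero-sum library. Cited1, the transcriptional co-activator that marks the least committed cells, stood at 105, 157 and 161 CPM, against 159, 190.4 and 193 CPM (log2 fold change -0.32 ± 0.05 (SE), adjusted p = 2.19e-06). It was lower in each library, but the libraries overlapped between the classes, and it did not pass without the library as a term (adjusted p = 0.17).

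The picture depended on how depth was handled. With each cell thinned to 5000 UMIs, 13 of 25 fell and none rose, and the median was -0.27. With only cells at or above their library's median of UMIs, 6 of 25 fell and 4 rose, and the median was -0.06. Crym fell by 0.50 among deep cells and by 0.55 with thinned cells, and Cited1 by 0.44 and 0.21, on the log2 scale. Dcx, a microtubule protein gene at a log2 fold change of -0.92 ± 0.10 over all cells, was at -0.06 among deep cells and -0.95 with thinned cells. Colec12 (-0.62 ± 0.07) was at 0.19 among deep cells, which did not pass, and -0.51 with thinned cells. The co-activator gene Cited2 (-0.30 ± 0.04) was at -0.44 among deep and -0.28 with thinned cells. The members that rose were Hoxd11, a kidney patterning gene (0.19 ± 0.05), and Pax2, a progenitor transcription factor gene (0.14 ± 0.05). Cited2, Hoxd11 and Pax2 did not pass without the library as a term, Hoxd11 was lost without library 3 (adjusted p = 0.0635), and Pax2 was lost in 9 alternatives, among them without library 2 (adjusted p = 0.229). How far depth per cell accounts for these values was not tested beyond these alternatives.

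Genes of commitment were called about as often as genes at large: of 15 tested, 4 rose and 2 fell. Over all genes tested, 21.5% were higher and 21.8% lower. Id2 and Id1, inhibitors of basic helix-loop-helix factors, were higher. Id2 stood at 278, 234 and 300.0 CPM in mitotic progenitors, against 179, 217 and 219.7 CPM in zero-sum progenitors (log2 fold change 0.46 ± 0.05 (SE), adjusted p = 1.08e-10). Id1 stood at 81, 99 and 97.7 CPM, against 62.2, 78.1 and 74 CPM (log2 fold change 0.43 ± 0.06 (SE), adjusted p = 1.80e-07). For both genes the classes did not overlap, and Id2 did not pass without the library as a term (adjusted p = 0.092). Ccnd1, listed here too, was one of the genes that fell.

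Of 13 early nephron markers only Epcam and Bcat1 had enough counts for a test. Epcam, an epithelial adhesion molecule gene, stood at 12.3, 12.2 and 13.2 CPM, against 3.75, 8.49 and 4.84 CPM in zero-sum progenitors (log2 fold change 1.22 ± 0.21 (SE), adjusted p = 2.30e-06). Cdh1, Irx1 and Pou3f3 were at 0 in all 603 members, and Lhx1 had 7 UMIs there and 8 in zero-sum progenitors.

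Signalling genes gave a mixed picture, to be read beside the 21.5% higher and 21.8% lower over all genes tested. Of 9 tested Notch pathway genes 5 fell and 1 rose, with a median of -0.40. Against S-rich progenitors 2 of 9 tested were lower and 1 higher, with a median of -0.16. Hes1, the main transcriptional target of Notch, stood at 389, 360.3 and 301 CPM in mitotic progenitors, against 587, 708 and 485 CPM in zero-sum progenitors (log2 fold change -0.70 ± 0.04 (SE), adjusted p = 1.57e-20), with all mitotic libraries lower, and Hes6 was at -0.35 ± 0.05. Notch1, the receptor that rose (log2 fold change 1.43 ± 0.34 (SE), adjusted p = 0.000527), rested on few counts, with 3.24, 5.09 and 5.69 CPM, against 1.25, 2.55 and 1.54 CPM, and did not pass with DESeq2. Of 11 BMP and TGF-beta genes 4 rose and 5 fell. Tgfbi, a matrix protein induced by TGF-beta, stood at 219, 289 and 256 CPM, against 362, 545 and 461 CPM (log2 fold change -0.78 ± 0.04 (SE), adjusted p = 1.94e-23). The TGF-beta ligand gene Tgfb2 was at -1.04 ± 0.17, a call lost when cells were thinned. Of 18 FGF and ERK genes 2 rose and 6 fell, and Spry1, an ERK feedback inhibitor, was at 0.61 ± 0.10, also lost when cells were thinned.

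Immediate early genes, which cells switch on within minutes of a stimulus, dissociation included, were mostly lower. Of 24 tested, 13 fell and 2 rose, with a median of -0.28. The list summed to 2607, 5109 and 3789 CPM in mitotic progenitors, against 3251, 7094 and 4237 CPM in zero-sum progenitors, and it was highest in library 2 in both classes. Fos stood at 428, 806 and 704 CPM, against 603, 1439 and 831 CPM (log2 fold change -0.48 ± 0.05 (SE), adjusted p = 1.18e-12), and Junb was at -0.66 ± 0.04. Neither passed without the library as a term. Among deep cells Fos was at -0.03 and Junb at -0.16, neither past the threshold, and 3 of 22 tested fell. With cells thinned to 5000 UMIs both fell, Fos by 0.45 and Junb by 0.60 on the log2 scale, and 7 of 22 tested fell. Zfp36 (-0.89 ± 0.09) and Myc (-0.66 ± 0.06) did not pass without the library as a term.

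Klf6 was one of the 2 immediate early genes that rose. This zinc finger gene stood at 23.1, 36.9 and 24.5 CPM in mitotic progenitors, against 4.65, 10.8 and 5.06 CPM in zero-sum progenitors (log2 fold change 2.11 ± 0.15 (SE), adjusted p = 7.55e-17). Every mitotic library was above every zero-sum library, and the log2 fold change was 1.97 among deep cells and 1.81 with cells thinned to 5000 UMIs. Ier5 was also higher (0.51 ± 0.07), a call lost when cells were thinned (adjusted p = 0.0508).

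Genes of general metabolism moved little. The counts below stand beside 21.5% higher and 21.8% lower over all genes tested. Of 78 ribosomal protein genes 75 were lower and 1 higher, by a median of -0.17, and none passed without the library as a term. Of 40 genes of oxidative phosphorylation 16 rose and 5 fell. Of 19 glycolysis genes 3 rose and 10 fell, among them Gpi1 (-0.35 ± 0.04) and Pfkl (-0.35 ± 0.05), neither of which passed without the library as a term. Of 19 chaperone genes 13 rose and 3 fell: the stress-inducible Hsp90aa1 was at 0.53 ± 0.03 and its constitutive partner Hsp90ab1 at -0.27 ± 0.02. Hsp90ab1 did not pass without the library as a term. Odc1, the first enzyme of polyamine synthesis, rose by 0.90 ± 0.05. Among genes of the contractile cytoskeleton and Hippo targets 3 of 16 rose and 9 fell, with Myl9, a myosin light chain gene, at -1.14 ± 0.13. Of 5 long noncoding RNAs of the nucleus 4 fell, with the imprinted Meg3 at -0.66 ± 0.10.

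**Figure D4:**
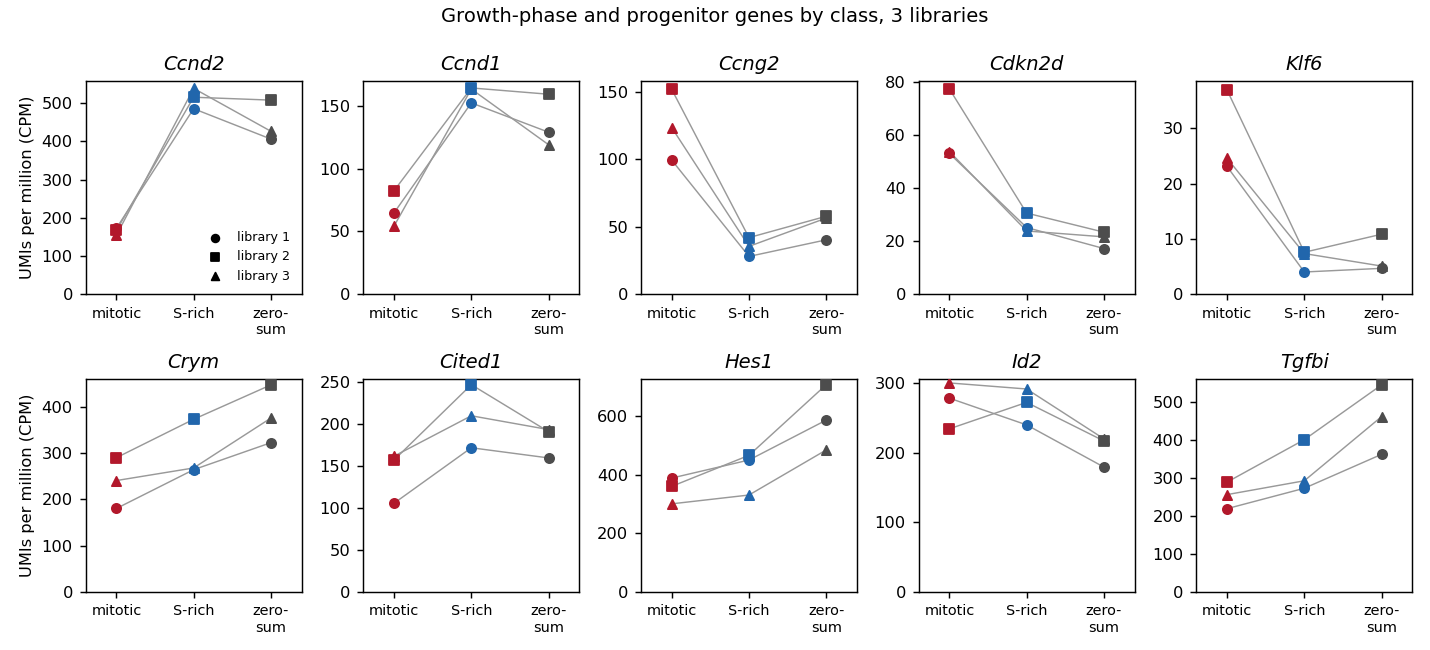
Levels (CPM) of 10 genes in mitotic, S-rich and zero-sum progenitors, with 1 point per library (circle, square and triangle for libraries 1, 2 and 3) and lines joining a library. Ccnd2 and Ccnd1 are lowest and Ccng2, Cdkn2d and Klf6 highest in mitotic progenitors in all 3 libraries, while Cited1 libraries overlap between mitotic and zero-sum progenitors.

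The second comparison set mitotic against S-rich progenitors, which also cycle and were closer in depth, with 1.18, 1.26 and 1.18 times as many UMIs per median mitotic cell. Of 10575 genes tested with edgeR's quasi-likelihood test, 3795 (35.9%) differed, 1764 (16.7%) higher and 2031 (19.2%) lower, with a median log2 fold change of -0.01 over all genes. The genes that chose either class were not tested. DESeq2 called 1347 genes and edgeR without the library as a term 1319.

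Of the 126 G2 and M genes, 108 were higher and 7 lower in mitotic progenitors, with a median log2 fold change of 1.33. All 27 kinesins and spindle genes, 10 cytokinesis genes and 4 passenger complex genes were higher. Cenpa stood at 455, 567 and 487 CPM in mitotic progenitors, against 28.4, 33.4 and 33.3 CPM in S-rich progenitors (log2 fold change 4.0 ± 0.06 (SE), adjusted p = 4.32e-46). Ccnb2 (cyclin B2) stood at 204, 256 and 234 CPM, against 13.8, 24.2 and 21 CPM (log2 fold change 3.58 ± 0.08 (SE), adjusted p = 7.31e-39). Cdkn3, a phosphatase gene that acts on cyclin-dependent kinases, stood at 28.3, 18.6 and 32.6 CPM, against 0.938, 1.57 and 1.83 CPM (log2 fold change 4.23 ± 0.24 (SE), adjusted p = 7.60e-21). None of these classes overlapped. Pif1 (5.73), Gas2l3 (4.28), Arhgef39 (3.92), the tubulin gene Tuba1c (3.68), the spindle protein gene Psrc1 (3.67), the noncoding RNA Lockd (3.57) and Fam64a (3.47) were the other large rises on the log2 scale.

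Cdk1 and Ccna2, which are already made in S phase, differed less. Cdk1 stood at 337, 532 and 399 CPM in mitotic progenitors, against 144, 206 and 161 CPM in S-rich progenitors (log2 fold change 1.31 ± 0.05 (SE), adjusted p = 1.68e-30), and Ccna2 at 283, 402 and 319 CPM, against 108, 135 and 113 CPM (log2 fold change 1.49 ± 0.05 (SE), adjusted p = 5.59e-31). Mybl2 (B-Myb), part of the complex that activates G2 genes, was lower, with 11.5, 26.7 and 19.1 CPM, against 52.1, 63.6 and 48.5 CPM (log2 fold change -1.55 ± 0.12 (SE), adjusted p = 6.30e-16). The kinase genes Pkmyt1 (-0.83 ± 0.09) and Wee1 (-0.32 ± 0.12), which hold Cdk1 inactive before mitosis, were lower too. Pkmyt1 was lost with the top 20% as members, and Wee1 in 10 alternatives, among them without library 1 (adjusted p = 0.454) and without library 3 (adjusted p = 0.193).

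Replication genes were lower throughout, which the choice of the S-rich class fixes in large part: 45 of 45 tested fell, with a median of -1.02. E2f1, the factor that drives entry into S phase, stood at 13.4, 29.8 and 18.3 CPM in mitotic progenitors, against 94.8, 135 and 112 CPM in S-rich progenitors (log2 fold change -2.49 ± 0.09 (SE), adjusted p = 5.57e-29). Ccne1 (cyclin E1) stood at 43.7, 62.1 and 53.8 CPM, against 217, 267 and 217 CPM (log2 fold change -2.14 ± 0.06 (SE), adjusted p = 5.99e-34). Cdt1 stood at 29.6, 36.6 and 30.8 CPM, against 160.2, 213 and 159 CPM (log2 fold change -2.45 ± 0.07 (SE), adjusted p = 5.99e-34). The classes were far apart in every library. Further large falls were Alkbh2 (log2 fold change -3.24), Fam111a (-2.19), the chromatin assembly gene Chaf1b (-2.13), Mmp23 (-2.10), Dtl (-2.05), which marks Cdt1 for destruction, the helicase gene Hells (-2.00) and Tmem121 (-1.98).

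The low D cyclins of mitotic progenitors also stood against S-rich cells. Ccnd2 was at 172, 167 and 154 CPM in mitotic progenitors, against 486, 516 and 539 CPM in S-rich progenitors (log2 fold change -1.63 ± 0.05 (SE), adjusted p = 5.99e-34), and Ccnd1 at 64.8, 82.4 and 54.3 CPM, against 152, 164 and 164 CPM (log2 fold change -1.25 ± 0.07 (SE), adjusted p = 2.21e-21). Ccng2 was again higher, at 99.4, 152 and 124 CPM, against 27.9, 41.9 and 35.4 CPM (log2 fold change 1.84 ± 0.08 (SE), adjusted p = 4.26e-27), as was Cdkn2d, at 53, 77.4 and 53.8 CPM, against 25.1, 30.5 and 23.8 CPM (log2 fold change 1.21 ± 0.10 (SE), adjusted p = 3.19e-15). These 4 genes did not overlap between the classes. The mitotic sums are the same in both comparisons, which are therefore not independent. Cdk2, the partner of cyclin E, was at -0.86 ± 0.08. Cdkn1c, lower than in zero-sum progenitors, was here at 0.11 ± 0.03, a call that 3 alternatives lost, among them that without library 3 (adjusted p = 0.217).

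Progenitor genes did not move together against S-rich cells: of 25 tested 9 were higher and 6 lower, with a median of 0.09. The shares over all genes tested were 16.7% higher and 19.2% lower. Cited1 stood at 105, 157 and 161 CPM in mitotic progenitors, against 171, 246 and 209 CPM in S-rich progenitors (log2 fold change -0.57 ± 0.05 (SE), adjusted p = 1.27e-12), and in this comparison the libraries did not overlap. Crym was at -0.35 ± 0.05, Hoxd11 at 0.33 ± 0.06 and the growth factor gene Pgf at 0.51 ± 0.07, and none of these 3 passed without the library as a term. Cited1 was thus lowest in mitotic progenitors of the 3 classes in every library.

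Immediate early genes were also mixed, with 6 of 23 higher and 3 lower, near the 16.7% and 19.2% over all genes tested. The list summed to 2607, 5109 and 3789 CPM in mitotic progenitors, against 2665, 5079 and 3168 CPM in S-rich progenitors, a spread within that between libraries. Klf6 stood at 23.1, 36.9 and 24.5 CPM, against 3.99, 7.56 and 7.32 CPM (log2 fold change 2.19 ± 0.17 (SE), adjusted p = 1.72e-15), with no overlap. Klf10 was at -0.78 ± 0.13 and Myc at -0.61 ± 0.06, of which Myc did not pass without the library as a term.

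Glycolysis genes were lower against S-rich cells, with 14 of 18 lower and none higher and a median of -0.35. Ldha, which encodes lactate dehydrogenase A, stood at 732, 1042 and 855 CPM in mitotic progenitors, against 990.1, 1439.5 and 1193 CPM in S-rich progenitors (log2 fold change -0.45 ± 0.03 (SE), adjusted p = 5.60e-18). Pfkl, a phosphofructokinase gene, stood at 97.8, 145 and 118 CPM, against 140.0, 231 and 163 CPM (log2 fold change -0.55 ± 0.06 (SE), adjusted p = 6.15e-12). Both were lower in each library, although the classes overlapped. Aldoa was at -0.41 ± 0.04 and Pkm at -0.29 ± 0.03, and neither passed without the library as a term. Odc1 was again higher (0.59 ± 0.05). Histone genes Hist1h3c (2.05 ± 0.27), Hist1h2ag (1.41 ± 0.21) and Hist1h4i (0.42 ± 0.06) were among 6 of 15 replication histone genes that were higher than in S-rich progenitors, though none of these 3 passed without the library as a term. Hist4h4 was the 1 gene of the list that was lower (-0.99 ± 0.18), a call lost when cells were thinned, without the library as a term and with the top 20% as members, and 8 did not pass.

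The members themselves were then split by the balance between groups of rule genes. The share of a member's 8-gene sum that came from Cdc20, Ccnb1, Plk1, Ube2c and Aurka had a median of 70.5%, 74% and 70.5% in libraries 1, 2 and 3, and the rest came from Cenpe, Cenpf and Hmmr. Members above their library's median numbered 300 and are called Cdc20-led, and the 303 others Cenpf-led. These names are relative. Only the lower 10% of members had a share below 55.5%, 61.9% and 58.4% in libraries 1, 2 and 3. Cdc20, Ccnb1, Plk1, Ube2c and Aurka therefore gave most of the sum in most Cenpf-led members too. The split ran through the densest part of the range, with 277 of 603 members within 5 percentage points of it. Of 9388 genes tested with edgeR's quasi-likelihood test, 179 (1.91%) differed, 89 (0.948%) higher and 90 (0.959%) lower in Cdc20-led members. Without the library as a term edgeR called 0, with 413 genes at an unadjusted p under 0.05, and DESeq2 called 12.

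G2 and M genes as a whole were spread to both sides, with 6 of 126 higher and 6 lower. Cdk1 stood at 367, 572 and 432 CPM in Cdc20-led members, against 304, 491 and 363 CPM in Cenpf-led members (log2 fold change 0.26 ± 0.05 (SE), adjusted p = 0.000104). Of 45 replication genes 6 were lower and none higher.

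Id2, Ccnd1 and Ccnd2 were higher in Cdc20-led members. Id2 stood at 322, 256 and 352 CPM in Cdc20-led members, against 229, 211 and 244 CPM in Cenpf-led members (log2 fold change 0.45 ± 0.06 (SE), adjusted p = 3.76e-11). Ccnd1 stood at 73.2, 104 and 70.3 CPM, against 55.3, 60.8 and 37 CPM (log2 fold change 0.68 ± 0.11 (SE), adjusted p = 1.28e-07), and Ccnd2 at 204, 177 and 185 CPM, against 136, 157 and 120.2 CPM (log2 fold change 0.47 ± 0.07 (SE), adjusted p = 4.14e-08). For all 3 the Cdc20-led libraries were above all Cenpf-led ones. With cells thinned to 5000 UMIs the log2 fold change was 0.08 for Id2 (adjusted p = 0.973), 0.45 for Ccnd1 (adjusted p = 0.719) and 0.26 for Ccnd2 (adjusted p = 0.801). The remaining D cyclin gene, Ccnd3, which was picked after its values were seen, stood at 132, 172 and 143 CPM in Cdc20-led members, against 136, 178 and 129 CPM in Cenpf-led members (log2 fold change 0.02 ± 0.07 (SE), adjusted p = 0.967). Of 14 genes of commitment 5 were higher and none lower.

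Cdkn1c, Cited1 and 5 of 21 immediate early genes were lower in Cdc20-led members. Cdkn1c stood at 1231, 1863 and 1248 CPM in Cdc20-led members, against 1645, 2016 and 1806 CPM in Cenpf-led members (log2 fold change -0.34 ± 0.03 (SE), adjusted p = 1.55e-21), and was lower in every library though the groups overlapped. Cited1 stood at 81.6, 152 and 128 CPM, against 132, 161 and 197 CPM (log2 fold change -0.45 ± 0.08 (SE), adjusted p = 2.81e-06), and Fos at 386, 673 and 678 CPM, against 475, 942 and 732 CPM (log2 fold change -0.29 ± 0.04 (SE), adjusted p = 2.24e-08). No immediate early gene passed as higher, and Junb was at -0.34 ± 0.06. Ccng2 (-0.41 ± 0.08) and Btg2 (-0.39 ± 0.07) were lower too. Without library 2 the calls of Fos (adjusted p = 0.0626) and Btg2 (adjusted p = 0.205) were lost. Of 5 further genes among those of largest change, Pprc1 (log2 fold change 0.89), Tuba1c (0.43), Sepp1 (-0.93), Zbtb7c (-0.76) and Pygo1 (-0.75), each lost its call without at least 1 library: Sepp1 without library 3 (adjusted p = 0.249), Pprc1 without library 1 or 3 (0.0987 and 0.0532), Tuba1c without library 1 or 2 (0.122 and 0.154), Pygo1 without library 1 or 3 (0.102 and 0.316) and Zbtb7c without library 1, 2 or 3 (0.073, 0.103 and 0.0554). Without those libraries the log2 fold change was 0.87 and 0.83 for Pprc1 and -0.54 for Sepp1, and that of Zbtb7c was -0.80, -0.71 and -0.76. Cdc20-led members held 1.11, 1.06 and 1.15 times the median UMIs of Cenpf-led members, and the 1 member with immune transcripts was Cenpf-led. None of the named genes of this split passed without the library as a term, and with cells thinned to 5000 UMIs 13 genes passed, of which Cdkn1c alone is named here.

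**Figure D5:**
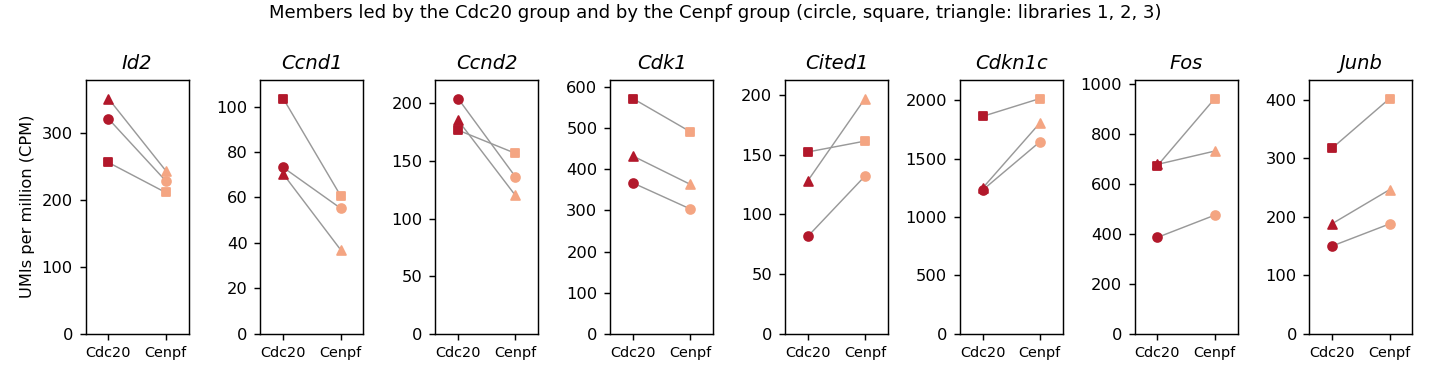
Levels (CPM) of 8 genes in Cdc20-led (left) and Cenpf-led (right) members, with 1 point per library and lines joining a library. Id2, Ccnd1, Ccnd2 and Cdk1 are higher and Cited1, Cdkn1c, Fos and Junb lower in Cdc20-led members in all 3 libraries, by less than the spread between libraries for Cdk1, Cdkn1c, Cited1, Fos and Junb.

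The same score was then read in cells outside the gate, which the rule did not use. Among Six2-positive cells with Wnt4, 21 of 162 (13%, Wilson 95% interval 8.64 to 19%), 8 of 75 (10.7%, 5.50 to 19.7%) and 16 of 94 (17.0%, 10.8 to 25.9%) cells of libraries 1, 2 and 3 passed their library's threshold. The mean of 13.6% ± 3.22 (SD, n = 3) exceeded the 9.97% of the gate by 3.58 ± 3.23 percentage points, and an exact two-sided sign-flip permutation test gave p = 0.25, the smallest that 3 libraries allow. Wnt4-positive cells were deeper, with medians of 20823, 14992 and 20521.5 UMIs, against 16246.5, 12116 and 15919 in the gate. With all cells thinned to 5000 UMIs the shares were 18.6%, 13.3% and 19.1%, against 11.3%, 10.8% and 10.2% in the gate. Wnt4 was still read over all UMIs there, with 161, 75 and 94 Wnt4-positive cells. Thinning therefore did not even out how these cells were picked, and the part of that choice in the shares was not tested. Of cells without a Six2 UMI 7.37%, 7.27% and 6.31% passed the threshold. The share among Wnt4-positive cells was higher in each library than in the gate, but 3 libraries cannot take this difference past the threshold. A cell counted as Wnt4-positive with at least 1 UMI, and the part of free RNA in these counts was not tested. The intervals cover counting error only.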

How the data were processed

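The authors deposited counts, whole numbers of UMIs per gene and cell, in 1 matrix of 7924 barcodes and 27998 genes. The submitters' processing notes name Cell Ranger 1.3.1 and the build mm10. No filter beyond that software is given in the sources used here. From these counts the UMIs were summed per library and class (3869668 to 5593068, 3175394 to 4939802 and 1863198 to 2623821 UMIs per sum in the 3 comparisons, in the order of the text) and tested with edgeR 4.0.16 in R 4.3.3 (quasi-likelihood F-test, TMM scaling, filterByExpr, library and class as terms, two-sided, Benjamini-Hochberg adjustment over all genes tested, threshold 0.05). DESeq2 1.42.0 was an alternative. Each SE given is the size of the log2 fold change divided by the square root of its F statistic. The library pairs the sums because both classes come from the same tube, and deviations of paired sums correlated at 0.657, 0.751 and 0.297 (mitotic against zero-sum), 0.652, 0.742 and 0.285 (against S-rich) and 0.585, 0.677 and 0.217 (Cdc20-led against Cenpf-led), across genes. Scrublet, run through scanpy 1.11.5 per library with 3% expected, called 18 cells (0.228%) and so did not work, and no doublet was removed in the comparisons. Genes named with a test came from the 10 largest rises and falls at 20 CPM or more. Others were from up to 4 of the lowest p per list and direction. Not all of these are named, and in the split of the members this holds for the largest changes too. Cell type markers and genes picked after their values were seen are also named. Rule genes, Six2 and Wnt4 were left out of tests. The members, the 33 gene lists and the tests were chosen with earlier results of these data known. Of 560 listed symbols 2 were not matched. Some marker genes of other cell types are not reported here. Scripts were tested on simulated data. Promoters come from RefSeq (GRCm38.p6).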

Additional observations from a re-analysis of the deposited data

How the results depend on the processing

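Without the replicate block (library left out of the model) 2021 genes passed between mitotic and zero-sum, 1319 between mitotic and S-rich and 0 between Cdc20-led and Cenpf-led members. DESeq2 called 2023, 1347 and 12. With each cell thinned to 5000 UMIs and the classes chosen anew, 2529 (2364 of them called with the same sign over all UMIs), 1410 and 13 genes passed. With cells at or above their library's median of UMIs, 2464 genes passed between mitotic and zero-sum (2220 called with the same sign over all cells), where the log2 fold change of Cdkn1c was 0.074, that of Colec12 0.19 and no reversed gene passed. Leaving out each library in turn gave 3774 to 4032, 2948 to 3165 and 64 to 125 genes. The split of the members moved most: 82 genes with sums thinned, 23 with the top 5%, 596 with the top 20% (114 also called with the top 10%) and 104 without barcodes rich in A and T. Other scalings, filters, doublet scores and the immune cells, an alternative added after seeing the data, kept each count within 1.5 times. Without the 6% highest doublet scores 4705, 3865 and 136 genes passed. Sepp1 lost its call there in the split of the members (edgeR, log2 fold change -0.60, adjusted p = 0.0747). Without cells of 5 or more immune marker UMIs 4699, 3857 and 148 genes passed. The mean share of Six2-positive Wnt4-positive cells past the threshold was 17.0% with cells thinned. Of single-gene values, calls were lost with the sign kept in 35 of those for mitotic against zero-sum, 26 for mitotic against S-rich and 66 for the split of the members, against 1560, 723 and 181 on the same side. Besides Cdkn1c and Colec12, the sign turned for Ccnd3, not called in the split, at -0.052 without barcodes rich in A and T (adjusted p = 0.889) and at -0.046 to 0.056 with each library left out in turn, the lowest without library 3. The cause of these shifts was not tested. At these depths genes under a few CPM, most histones and early nephron markers among them, could not be tested.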

Other observations

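Mitotic progenitors held more transcripts of the DNA replication list than zero-sum progenitors and fewer than S-rich ones, and differed among themselves in how much. The 8 genes that chose S-rich progenitors are outside that list. Their mean levels summed to 783 CPM in mitotic and 1110 CPM in zero-sum progenitors. The 45 genes of the DNA replication list summed to a median of 50.5, 67.9 and 56.3 UMIs per 10000 UMIs in mitotic progenitors of libraries 1, 2 and 3, against 110.3, 131 and 114 in S-rich and 28.5, 35.0 and 29.4 in zero-sum progenitors. The upper 10% of mitotic progenitors lay above 88.7, 115 and 103.6, and the lower 10% of S-rich progenitors lay below 77.6, 78.4 and 75.2. The classes thus overlapped in replication transcripts in each library, although the rule put no cell in both.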
